A study of Mus musculus with 18 samples.

Results

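The genes described here are 10 genes of the perinuclear theca and of its actin-like proteins: Actl7a, Actl7b, Actl9, Actrt1, Actrt2, Actrt3, Capza3, Ccin, Cylc1 and Cylc2. They were taken by name as rows of the count table, which holds 54232 genes. All 10 were among the 21058 genes that passed the filter on low counts, and the lowest count of any of them in any library was 89. RNA was taken from round spermatids (RS), the haploid germ cells that have finished meiosis and have not begun to elongate, of mice aged 75 to 85 days. There were 6 libraries from WT mice, 6 from GRTH-KO mice and 6 from GRTH-KI mice, with between 18766971 and 26776555 counts on genes per library. GRTH is the RNA helicase made from Ddx25. KO mice lack it, whereas KI mice carry a human GRTH gene with a missense mutation and do not make the phosphorylated form of the protein. The RS were enriched on an albumin gradient and were not sorted by a marker, and nothing in the labels ties a library to a single animal, so p-values measure the spread between these libraries.

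The perinuclear theca is a rigid protein layer that wraps the sperm nucleus. Its front part lies between the acrosome and the nuclear envelope and holds the acrosome to the nucleus, and its rear part, the postacrosomal sheath, carries proteins that act on the egg. It is built while spermatids shape their heads, from cylicins and calicin together with proteins that resemble actin and are made almost only in the testis.

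The targeted gene and the likeness of libraries were examined first. Ddx25 lay between 538 and 607 CPM in WT (CPM, normalized counts per 1000000 counts) and between 47.7 and 90.9 CPM in KO. In KI it did not exceed 0.519 CPM except in the library labelled KI 4, whose 56.9 CPM is inside the KO range and goes against the label. KI 4 was also nearer to KO 2 than any other pair of libraries was to each other, with a pair index of 1.59, where an index of 1 would mean that gene counts differ by no more than sampling noise. The WT libraries formed 3 close pairs, with numbers 1 and 2 (2.14), 3 and 4 (2.86), and 5 and 6 (3.24). Close pairs within the mutants were KO 4 with KO 5 (2.05), KI 1 with KI 2 (2.61) and KI 3 with KI 5 (2.73), and the next pair stood at 4.73. Whether such pairs share an animal or a preparation was not tested, and the calls that the members and gene lists lost with the pairs summed and KI 4 left out are given beside them.

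RS markers were present in every library, and some were lower in the mutants. The 12 markers summed to between 1322 and 2025 CPM in WT, 985 and 1884 CPM in KO and 961 and 1280 CPM in KI, and the most abundant was Acrbp, an acrosome protein. The KI sums lay wholly below those of WT. By any amount, 4 of the 12 were lower in KO (median log2 fold change of the 12 -0.19) and 6 in KI (median -0.48), and none was higher. Of all genes tested, 13.5% were lower in KO and 15.4% in KI, and 16.4% and 16.1% were higher, and the counts of the other marker lists stand beside the same shares. Among them Tssk2, a kinase gene of spermatids, had -1.16 and -1.44 (edgeR adjusted p = 0.000531 and 5.04e-05), and Spam1, the gene of a sperm hyaluronidase, had -0.76 and -1.04. Transcripts of later spermatids also moved with genotype. The 10 markers of late spermatids, led by the protamine gene Prm2, summed to between 15744 and 21727 CPM in WT (median 20614), between 1840 and 4670 CPM in KO (median 3844) and between 2454 and 3767 CPM in KI (median 3431), and each of the 10 was lower past 1 log2 unit in both genotypes, as were 1.13% of all genes in KO and 1.43% in KI. With close pairs summed and KI 4 left out, 9 of the 10 passed that test in KO and 7 in KI. The paper that reported these libraries names all 10 among its changed genes, and the list was written with earlier results known. These counts are therefore a description and not an independent test. The 7 Leydig cell markers, led by Cyp17a1, went the other way, with sums between 10.8 and 22.4 CPM in WT (median 11.9), 34.2 and 58.9 CPM in KO (median 44.3) and 14.7 and 74.8 CPM in KI (median 35.9), and all 7 were higher by any amount in both genotypes. Markers of spermatocytes, led by Sycp2, summed to medians of 1317 CPM in WT, 1295 CPM in KO and 1291 CPM in KI. Of these 10, 3 were higher and 2 lower in KO, and 3 were higher and 1 lower in KI. Sycp3 of the synaptonemal complex (log2 fold change 0.74 in KO and 0.75 in KI) and the recombinase gene Dmc1 (0.82 and 0.50) were higher in both. Spo11, which makes the breaks of meiotic recombination, was lower in both (-0.45 and -0.37, edgeR adjusted p = 0.0259 and 0.068), and Meiob was lower in KO (-0.46, adjusted p = 0.0245). Those of Sertoli cells (led by Tmsb4x, medians 32.7, 27.4 and 24.5 CPM), of macrophages and endothelium (led by Vwf, 19.8, 31.4 and 32.1 CPM) and of spermatogonia (led by Kit, 34.5, 52.0 and 35.0 CPM) had smaller sums than those of spermatocytes. In none of these lists was a gene at the floor of 3 counts in every library. The macrophage and endothelial sums did not overlap between WT (at most 22.6 CPM) and KO (at least 23.4 CPM) or KI (at least 28.9 CPM), and 2 of 8 were higher in both genotypes, Vwf (log2 fold change 0.85 and 0.82) and Csf1r (0.72 and 1.24). Vwf alone had means of 10.8 CPM in WT, 19.6 CPM in KO and 19.2 CPM in KI. The other endothelial markers, Pecam1 (-0.28 and 0.09) and Cdh5 (-0.18 and -0.19), passed in neither genotype, nor did Cd68, Adgre1, C1qa and Cd74 of macrophages. Of 7 tested spermatogonia markers, Kit (0.66) and Stra8 (1.23) were higher in KO and Stra8 (0.71) in KI. Of 9 tested Sertoli cell markers, Wt1 (-0.62 and -0.78) and Tmsb4x (-0.37 and -0.35) were lower in both and Amhr2 (-0.53) in KI. With close pairs summed and KI 4 left out, 3 RS markers were lower in KO and 4 in KI, the Leydig cell markers were higher for 7 of 7 in KO and 6 of 7 in KI, and the spermatocyte calls were 2 higher in KO and 1 higher in KI, with Spo11 and Meiob lost, and Dmc1 in KI. The calls of Kit, of Stra8 in KI, of Csf1r in KO, of Wt1 in KO, of Tmsb4x and of Amhr2 were also lost. Without KI 4 alone, Dmc1 (0.32, adjusted p = 0.213) and Stra8 (0.44, adjusted p = 0.221) no longer passed in KI. In bulk RNA, fewer cells of a stage and less RNA per cell cannot be told apart, and the part that these marker lists have in the values below was not tested.

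Of the 10 genes, 5 were lower in KO than in WT by any amount (Actl9, Actrt1, Actrt2, Capza3 and Cylc1), against 13.5% of all genes tested that were lower. In KI, 7 of the 10 were lower than in WT, the same 5 with Actl7a and Cylc2, against 15.4% of all genes tested. With close pairs summed and KI 4 left out, 5 members were lower in each genotype, beside 7.62% of all genes in KO and 6.87% in KI. One gene, Actrt3, was higher in KO, where 16.4% of all genes were higher. Its call was lost with DESeq2 and with close pairs summed and KI 4 left out. None was higher in KI, where 16.1% of all genes were, with none at an unadjusted p under 0.05 and none with DESeq2. These calls are from edgeR's quasi-likelihood test of all genes with a Benjamini-Hochberg adjusted p under 0.1. The median log2 fold change of the 10 genes was -0.76 in KO and -1.02 in KI, beside medians of 0.03 and 0.05 over all genes tested. Both genotypes are compared with the same 6 WT libraries.

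The log2 fold changes of the members lay between -1.34 (Cylc1) and 0.44 (Actrt3) in KO and between -1.98 (Cylc1) and 0.21 (Actrt3) in KI. No member was lower past 1 log2 unit by edgeR's glmTreat, in KO (0 of 10, beside 1.13% of all genes) or in KI (0 of 10, beside 1.43% of all genes), and DESeq2 also called none in either. In counts simulated for WT and KO, this test recovered 19.7% of genes set at 1.5 log2 units and 71.8% of those set at 2, and KI was not simulated. The changed genes were drawn at random from all levels, in libraries without close pairs and with no other gene changed. The shares are therefore not recovery rates for the members. At an unadjusted p under 0.05 it gave no member in KO and 1 in KI, Cylc1. Every KO library lay below every WT library for 4 members (Actl9, Actrt1, Actrt2 and Capza3), as for 6.44% of all genes tested. Every KI library lay below every WT library for 5 members (Actl9, Actrt1, Capza3, Cylc1 and Cylc2), as for 7.91% of all genes tested.

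**Figure D1:**
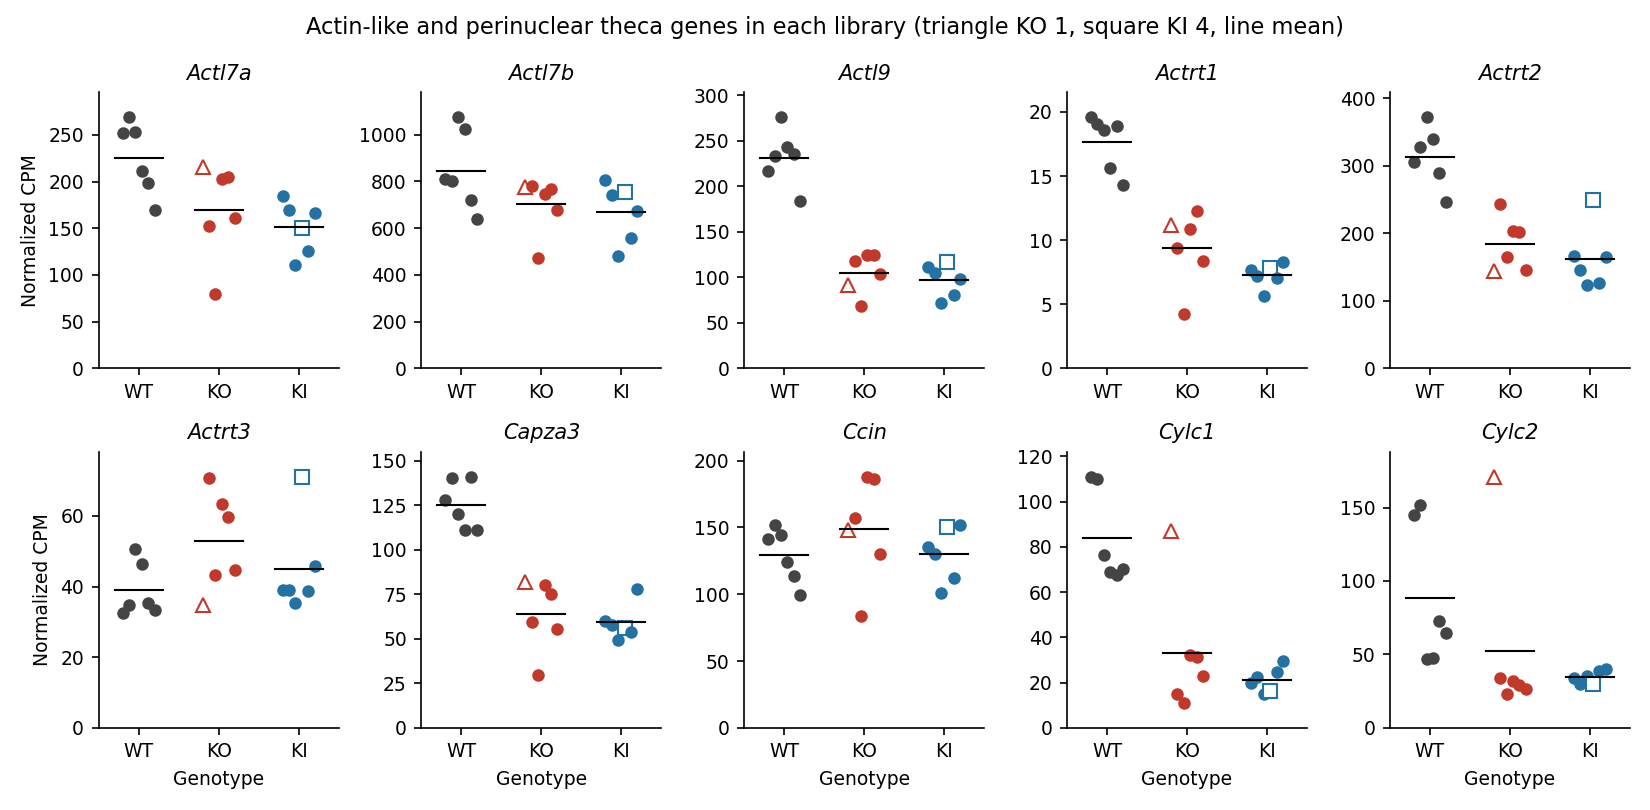
Normalized CPM (vertical axis, from 0) of the 10 genes in the 6 WT, 6 KO and 6 KI libraries, one point per library and a line at the mean; the triangle is KO 1 and the open square is KI 4. Actl9, Actrt1 and Capza3 were separated between WT and both mutant genotypes, Ccin and Actl7b were not, and KO 1 stood with WT for Cylc1 and Cylc2.

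In WT the members spanned a wide range of levels. Per kilobase of exon, Actl7b was the most abundant at 587 ± 119 CPM per kb (SD, n = 6), which placed it 39th among 14645 tested protein-coding genes. Actrt2 (219 ± 30.2), Actl9 (168 ± 22.1) and Actl7a (149 ± 25.6) followed, then Capza3 (82.1 ± 8.85), Ccin (66.5 ± 10.3), Cylc2 (45.7 ± 24.8) and Cylc1 (42.1 ± 10.5), all as CPM per kb. Actrt3 (19.8 ± 3.94) and Actrt1 (13.2 ± 1.62) were the lowest on the same scale. In this order the WT ranges of Actl7b and Actrt2 did not overlap, nor did those of Actl7a and Capza3, of Cylc1 and Actrt3, or of Actrt3 and Actrt1. The neighbours in the order from Actrt2 to Actl7a and from Capza3 to Cylc1 had overlapping ranges. Together the 10 genes held 2098 ± 289 CPM in WT, 1521 ± 298 CPM in KO and 1377 ± 229 CPM in KI (SD, n = 6 each). Actl7b made up 40.1% ± 4.02 of this sum in WT against 46.4% ± 2.18 for KO and 48.4% ± 2.31 for KI (SD, n = 6 each).

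Most members are compact genes. Actl7a, Actl7b, Actl9, Actrt1, Actrt2 and Ccin each have a single exon in GENCODE M21, Actrt3 has 2, and Capza3 has 1 or 2 by transcript, while Cylc1 has up to 6 and Cylc2 up to 5. Actl7a (GRCm38 chromosome 4, 56743413 to 56744925, plus strand) and Actl7b (chromosome 4, 56740005 to 56741443, minus strand) stand head to head 1970 bases apart. Chromosome 4 also holds Ccin (43983483 to 43985423), Cylc2 (51216678 to 51230272) and Actrt2 (154666433 to 154667867). Actrt1 (46329007 to 46330345) and Cylc1 (111110418 to 111125854) lie on chromosome X. Actrt3 is on chromosome 3 (30597073 to 30599939), Capza3 on chromosome 6 (140041252 to 140042778) and Actl9 on chromosome 17 (33432896 to 33434268).

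RefSeq promoter windows of 300 bases (250 before and 50 after the start site, GRCm38.p6) were at hand for 8 of the 10 genes, all except Capza3 and Cylc2. They were searched for the cAMP response element and its variants, the site of CREB and CREM family factors that act in RS, written as TGANGTCA or TGACNTCA on the other strand, where N is any base. The motif was chosen after the sequences had been seen. It was found in 5 of the 8 (Ccin, Actl7b, Actl7a, Actl9 and Cylc1) and in 8.83% of all 32851 promoter windows. Among 13 windows of other theca and acroplaxome genes it was found in 2, those of Fam209 and Gsto2. The complete palindrome TGACGTCA, which both spellings include, was found in 1 of the 8, Ccin, and in 1.79% of all windows. The windows of Actrt1, Actrt2 and Actrt3 did not hold these letters. The stretches around the match nearest to the start site are shown so that their likeness and position can be seen, with the match in capitals, 5′ to 3′ on the strand of the gene.
Ccin: catccattctaTGACGTCAccctctctccc
Actl7b: accattcctggTGACATCAcaacccaagtg
Actl7a: gtcacaatcagTGATGTCActgttgggcag
Actl9: ggcaagcacaaTGATGTCAcagaccactgt
Cylc1: gggtctctttaTGATGTCAtgactcaacat
The matches began 50, 36, 40, 60 and 32 bases before the start site in that order. The stretches lie at chr4:43983443-43983472 (plus strand), chr4:56741443-56741472 (minus strand), chr4:56743371-56743400 (plus), chr17:33432828-33432857 (plus) and chrX:111110375-111110404 (plus). Of these 5 genes, Actl9 and Cylc1 were lower in both genotypes, Actl7a was lower in KI, and Ccin and Actl7b passed the test in neither. A match is a description of the sequence and not a measured binding site.

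Among the actin-like proteins, Actl9 had the lowest adjusted p in both genotypes. ACTL9 lies in the part of the theca beneath the acrosome and is needed for the egg to be activated after fertilization. Actl9 lay between 184 and 276 CPM in WT (median 234), between 68.1 and 125 CPM in KO (median 111) and between 72.1 and 117 CPM in KI (median 102). Neither mutant genotype overlapped WT. The log2 fold change was -1.14 in KO (standard error, SE, 0.15, 95% interval -1.46 to -0.82, adjusted p = 1.12e-05, edgeR) and -1.25 in KI (SE 0.15, interval -1.57 to -0.93, adjusted p = 2.89e-06, edgeR). Its nearest tested protein-coding neighbours, the zinc finger genes Zfp101 and Zfp414, had log2 fold changes of -0.34 and -0.19 in KO and of -0.01 and -0.03 in KI, none of which passed the test.

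Actl7a and its head-to-head neighbour Actl7b had smaller fold changes. ACTL7A anchors the acrosome to the nucleus, and ACTL7B is an actin-like protein of round and elongating spermatids that is needed for male fertility. Actl7a lay between 169 and 269 CPM in WT (median 232), between 79.5 and 216 CPM in KO (median 182) and between 111 and 184 CPM in KI (median 158). The ranges overlapped, with 3 KO libraries and 4 KI libraries below the lowest WT library. The log2 fold change of Actl7a was -0.57 in KI (SE 0.19, edgeR adjusted p = 0.0331), and the call was lost with close pairs summed and KI 4 left out (log2 fold change -0.51, adjusted p = 0.329). In KO it was -0.41 (interval -0.81 to -0.01, adjusted p = 0.134), and it passed without KO 1 (log2 fold change -0.49, adjusted p = 0.0795) and without WT 6 (-0.49, adjusted p = 0.0659). Without KO 3 it was -0.27 (adjusted p = 0.243). With a block of the replicate number the KO change passed (-0.46, edgeR adjusted p = 0.0898), though the numbers were not taken to pair the libraries.

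Actl7b, the most abundant member, lay between 637 and 1075 CPM in WT (median 806), between 470 and 779 CPM in KO (median 756) and between 481 and 804 CPM in KI (median 706). Most mutant libraries were inside the WT range, with 1 KO library and 2 KI libraries below it. Its change was -0.27 in KO (interval -0.61 to 0.08, adjusted p = 0.277, edgeR) and -0.34 in KI (interval -0.68 to 0.01, adjusted p = 0.147, edgeR). In KI it passed without WT 6 (log2 fold change -0.38, adjusted p = 0.0849), and without WT 3 it was -0.20 (adjusted p = 0.393). Without KO 3 the KO value was -0.17 (adjusted p = 0.488). Actl7b overlaps Gm26657 on the opposite strand over 1308 bases, where counts were assigned by strand, and Gm26657 held 25 ± 4.60 CPM in WT, 18.3 ± 2.93 CPM in KO and 18.2 ± 4.65 CPM in KI (SD, n = 6 each).

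The actin-related proteins T1 to T3 are proteins of the theca of the sperm head, and ACTRT1 takes part in holding the acrosome. Actrt1, the least abundant member per length, lay between 14.3 and 19.6 CPM in WT (median 18.8), between 4.23 and 12.3 CPM in KO (median 10.1) and between 5.61 and 8.28 CPM in KI (median 7.43). All 12 mutant libraries lay below WT. On the log2 scale it changed by -0.91 in KO (SE 0.18, edgeR adjusted p = 0.000709) and -1.28 in KI (SE 0.18, edgeR adjusted p = 1.67e-05).

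Actrt2 lay between 247 and 372 CPM in WT (median 316), between 144 and 244 CPM in KO (median 184) and between 123 and 249 CPM in KI (median 156). KO did not overlap WT, and in KI only the library labelled KI 4, at 249 CPM, reached the WT range. KO 2, the library nearest to KI 4, was the highest of KO at 244 CPM. The log2 fold change of Actrt2 was -0.77 in KO (SE 0.17, edgeR adjusted p = 0.00205) and -0.95 in KI (SE 0.17, edgeR adjusted p = 0.000267), and without KI 4 the latter was -1.11 (SE 0.16).

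Actrt3 was not lower in either genotype. It lay between 32.5 and 50.7 CPM in WT (median 35.0), between 34.9 and 70.7 CPM in KO (median 52.3) and between 35.3 and 71.1 CPM in KI (median 39.1). KO 2 and KI 4 were the highest of their groups, at 70.7 and 71.1 CPM, followed by KO 4 (63.5 CPM) and KO 5 (59.8 CPM), and the groups overlapped. The log2 fold change in KO was 0.44 (interval 0.06 to 0.83, adjusted p = 0.0925, edgeR). This call was lost in 14 of 28 alternative settings. Among these were DESeq2 (log2 fold change 0.41, adjusted p = 0.133), RLE factors (0.41, adjusted p = 0.115), no filter on low counts (0.41, adjusted p = 0.156) and a threshold of 0.05. It was also lost with close pairs summed and KI 4 left out (0.39, adjusted p = 0.303) and with KO 2 and KI 4 left out together (0.34, adjusted p = 0.139). The other losses came without any one of 8 single libraries, namely WT 1, WT 2, WT 5, WT 6, KO 2, KO 4, KO 5 and KI 6. Of these 8, the highest adjusted p, 0.229, was without KO 2 (0.34). In KI the log2 fold change was 0.21 (interval -0.18 to 0.59), and 0.03 without KI 4.

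**Figure D2:**
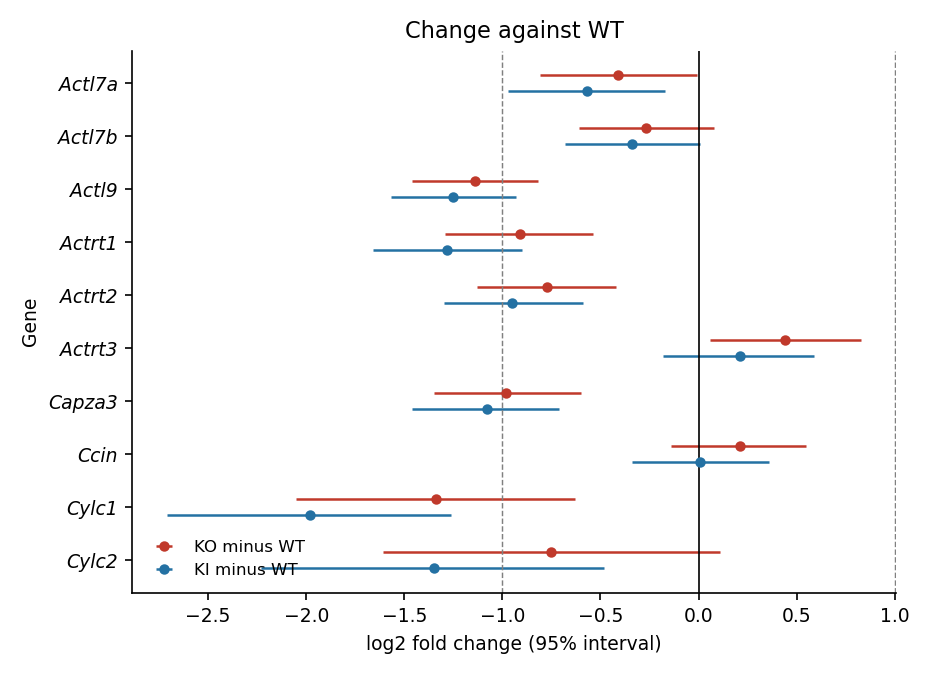
Log2 fold change against WT (horizontal axis, dashed lines at 1 log2 unit either way) of the 10 genes in KO and KI, with 95% intervals from edgeR over all 18 libraries. Cylc1 had the lowest value in both genotypes, and Actrt3 and Ccin lay at or above 0.

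CAPZA3 is the alpha subunit of the F-actin capping protein that is specific to male germ cells, where other cells use CAPZA1 and CAPZA2. Capza3 lay between 111 and 141 CPM in WT (median 124), between 29.8 and 81.9 CPM in KO (median 67.4) and between 49.2 and 78.1 CPM in KI (median 57.0). All 12 mutant libraries lay below WT. The log2 fold change was -0.98 in KO (SE 0.18, edgeR adjusted p = 0.000376) and -1.08 in KI (SE 0.18, edgeR adjusted p = 0.000116). Capza3 overlaps Plcz1 over 206 bases, head to head on opposite strands, where counts were assigned by strand, and Plcz1 encodes the sperm phospholipase that activates the egg. Plcz1 held 334 ± 34.0 CPM in WT, 137 ± 61.2 CPM in KO and 134 ± 23.1 CPM in KI (SD, n = 6 each). Its log2 fold change was -1.29 in KO (adjusted p = 0.000341, edgeR) and -1.32 in KI (adjusted p = 0.00023, edgeR).

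Calicin, a kelch-type protein, and the basic cylicins are the structural proteins of the theca. Ccin, the calicin gene, lay between 99.5 and 152 CPM in WT (median 133), between 83.5 and 188 CPM in KO (median 153) and between 101 and 152 CPM in KI (median 133). The WT and KI ranges were nearly the same, KO 2 (157 CPM), KO 4 (188 CPM) and KO 5 (186 CPM) were above them, and KO 3 (83.5 CPM) was below. Its log2 fold change was 0.21 in KO (interval -0.14 to 0.55, adjusted p = 0.43, edgeR, with 0.13 without WT 6, KO 4 or KO 5 and 0.33 without KO 3) and 0.01 in KI (interval -0.34 to 0.36, adjusted p = 0.981, edgeR), so a fall of 1 log2 unit lay outside both intervals.

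Of the cylicin genes, Cylc1 lay between 67.4 and 111 CPM in WT (median 73.3), between 11.1 and 87.0 CPM in KO (median 27.0) and between 15.1 and 29.5 CPM in KI (median 21). KI did not overlap WT. In KO, 5 libraries lay between 11.1 and 32.3 CPM and KO 1 stood apart at 87.0 CPM, inside the WT range. On the log2 scale it changed by -1.34 in KO (SE 0.34, edgeR adjusted p = 0.00603) and -1.98 in KI (SE 0.35, edgeR adjusted p = 0.000194). Against 1 log2 unit the KI change had an adjusted p of 0.184, which was 0.0129 when KO 1 was left out of the model and 0.0775 when KO 3 was. It was 0.358 without KI 4, 0.282 without both KO 2 and KI 4, and 1 with close pairs summed and KI 4 left out. The KO change of Cylc1 without KO 1 was -1.90 (SE 0.25, adjusted p = 0.0461 against 1 log2 unit).

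Cylc2 lay between 46.9 and 152 CPM in WT (median 68.7), between 22.8 and 171 CPM in KO (median 30.7) and between 29.7 and 40.0 CPM in KI (median 34.6). WT 1 (145 CPM), WT 2 (152 CPM) and KO 1 (171 CPM) formed a high group, the other 4 WT libraries lay between 46.9 and 73.0 CPM, and the other 5 KO libraries between 22.8 and 33.7 CPM. KI lay wholly below WT. The log2 fold change in KI was -1.35 (SE 0.42, adjusted p = 0.0217, edgeR), a call that was lost with close pairs summed and KI 4 left out (-1.25, adjusted p = 0.27). In KO it was -0.75 (interval -1.61 to 0.11, adjusted p = 0.214), and without KO 1 it was -1.61 (SE 0.26, adjusted p = 0.000126). Without any one of the other libraries it did not pass, with the value nearest to 0, -0.52 (adjusted p = 0.443), without WT 2. With a block of the replicate number the KO change passed (-0.98, edgeR adjusted p = 0.03), though the numbers were not taken to pair the libraries.

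KO 1 did not stand with WT for the markers of later spermatids, whose sum there was 3891 CPM, within the range of the other KO libraries. Its RS markers summed to 1884 CPM, the highest of KO, and its Ddx25 level of 90.9 CPM was also the highest of KO. The part of these differences in the cylicin values was not tested. By a search made after the cylicin values had been seen, the genes with the pattern most like that of Cylc2 over the 18 libraries were Akap12 (Pearson r = 0.944), Fhad1 (0.941), Chd5 (0.933), Sclt1 (0.928) and 1700017N19Rik (0.923), out of 16802 genes outside the lists with a mean of at least 1 CPM. Akap12, a scaffold of protein kinase A, had 2014, 2203 and 1691 CPM in WT 1, WT 2 and KO 1, where the other WT libraries lay between 773 and 1525 CPM and the other KO libraries between 271 and 432 CPM.

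**Figure D3:**
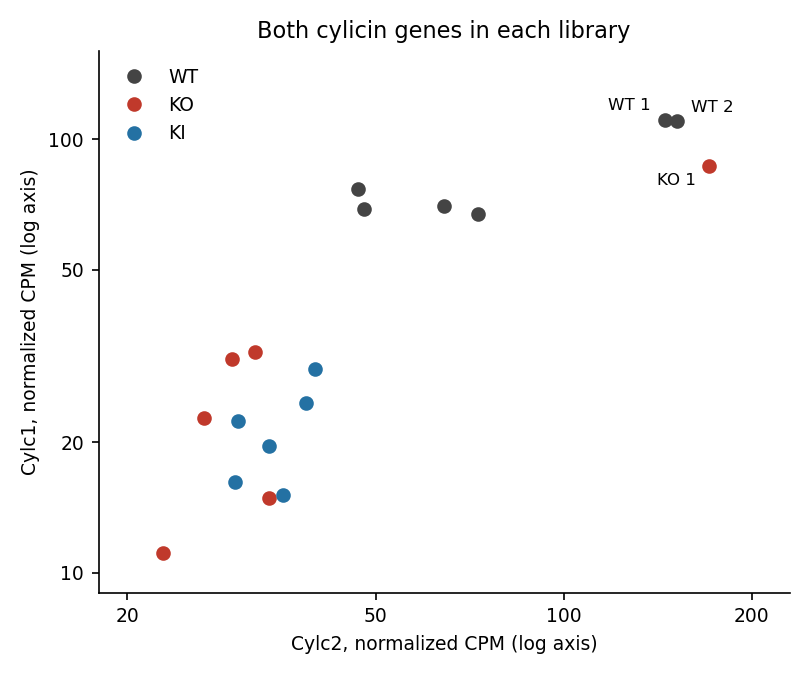
Cylc1 against Cylc2 in normalized CPM (both log axes), one point per library in the 6 WT, 6 KO and 6 KI libraries. WT 1, WT 2 and KO 1 stood at the top right, and the other 5 KO libraries lay with the KI libraries at the bottom left.

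KI and KO were then compared with each other. No member passed edgeR's test for a change of any amount (0 of 10, beside 0.0997% of all genes tested, or 0 of 10 beside 0.522% without KI 4), none had an unadjusted p under 0.05, and DESeq2 called none. Apart from the count without KI 4, these tests and the intervals that follow count KI 4 as KI. The adjusted p-values lay between 0.961 and 0.972. The narrowest interval was that of Actl9, where the log2 difference KI minus KO was -0.11 with an interval of -0.43 to 0.21, and the widest interval was that of Cylc2, from -1.47 to 0.27 around -0.60. For Actrt1 the difference was -0.37 (interval -0.75 to 0.01) and for Cylc1 -0.64 (interval -1.35 to 0.06). All 10 differences were below 0, with a median of -0.19 beside -0.02 over all genes tested. Without KI 4 all were again below 0, with -0.42 for Actrt3 (SE 0.17, edgeR adjusted p = 0.445) and -0.34 for Actrt2 (SE 0.15, adjusted p = 0.509). Without KO 3 that of Actrt1 was -0.52 (SE 0.13, edgeR adjusted p = 0.295), and without KO 1 that of Cylc2 was 0.26 (SE 0.26).

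Whether related genes changed by the same amount was tested on the difference in log2(CPM + 1) between both genes of a pair within each library, for 5 pairs and both genotypes against WT, by exact permutation tests, two-sided, with adjustment over the 10 comparisons. The smallest p that 6 against 6 libraries allow is 0.00216. Actrt2 minus Actrt3 was 2.99 ± 0.17 in WT against 1.80 ± 0.14 for KO and 1.83 ± 0.13 for KI (SD, n = 6 each), with no overlap. The change was -1.19 in KO and -1.15 in KI (exact permutation p = 0.00216 and adjusted p = 0.00541 for each). Capza3 minus Capza1, the general alpha subunit, was -0.76 ± 0.50 in WT against -2.14 ± 0.56 for KO and -2.07 ± 0.27 for KI (SD, n = 6 each). The change was -1.38 in KO and -1.32 in KI (exact permutation p = 0.00216 and adjusted p = 0.00541 for each).

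Cylc1 fell further than Cylc2 in KI, where Cylc1 minus Cylc2 went from 0.06 ± 0.47 in WT to -0.71 ± 0.29 (SD, n = 6 each, exact permutation adjusted p = 0.0173). The same change was -0.59 in KO (adjusted p = 0.105 by exact permutation). Actl7a minus Actl7b changed by -0.20 in KO and -0.24 in KI (exact permutation adjusted p = 0.257 and 0.105), and Actrt1 minus Actrt2 by -0.12 and -0.20 (exact permutation adjusted p = 0.632 and 0.222). The pseudocount of 1 CPM narrows the change of a gene at low CPM such as Actrt1. In edgeR, Actrt1 changed by -0.91 and -1.28 and Actrt2 by -0.77 and -0.95. More comparisons passed with a pseudocount of 0.1 CPM, as given in the closing section. With close pairs averaged and KI 4 left out, no pair passed, where 3 against 3 units cannot go below an exact permutation p of 0.1 in KI and 5 against 3 cannot go below 0.0357 in KO.

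**Figure D4:**
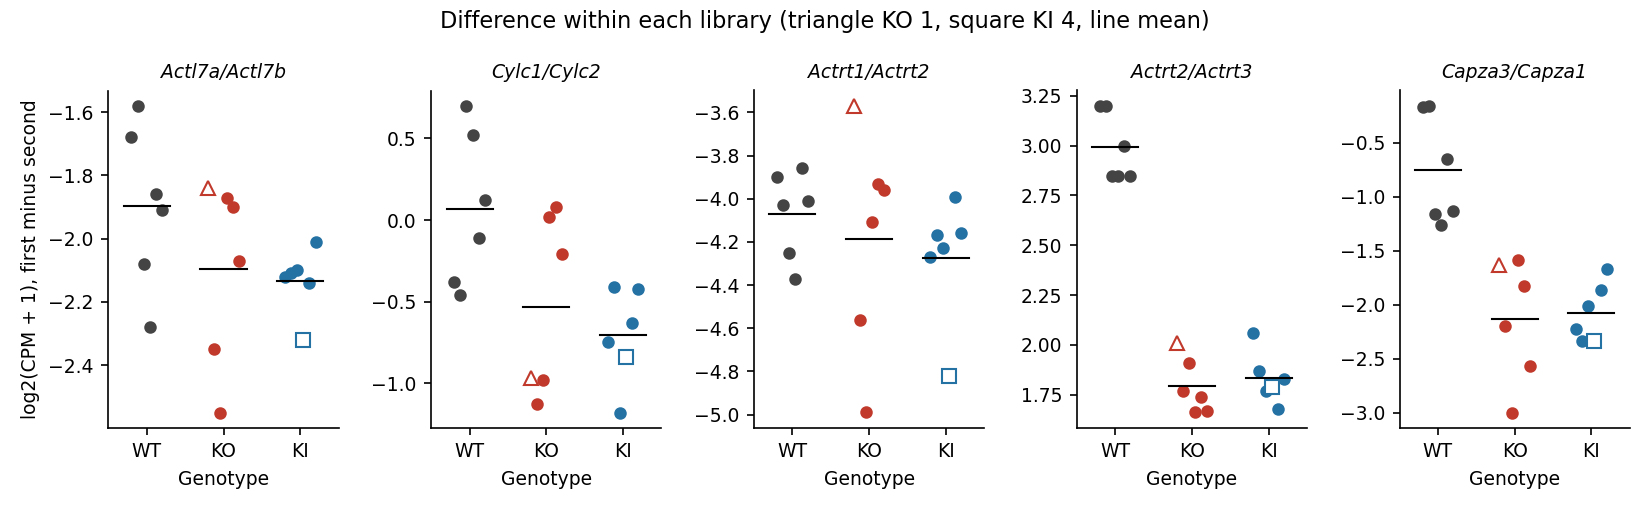
Difference in log2(CPM + 1) within each library (vertical axis) between the genes of 5 pairs in WT, KO and KI, with a line at the mean, a triangle for KO 1 and an open square for KI 4. Actrt2 minus Actrt3 fell from 2.99 in WT to 1.80 in KO and 1.83 in KI with no overlap between WT and the mutant genotypes.

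The neighbours of the members were examined next. Plcz1, which overlaps Capza3, was lower in both genotypes, as given above, and is not among the following genes. Outside any overlap, the nearest tested protein-coding genes on both sides that are not members themselves were 18, at distances from 2126 to 1912545 bases, and had a median log2 fold change of 0.00 in KO and -0.01 in KI. In KO, Ttc34 beside Actrt2 was higher (log2 fold change 0.82, adjusted p = 0.0122, edgeR), while Pik3c2g beside Capza3 (-0.76, adjusted p = 0.0175) and Glipr2 beside Ccin (-0.65, adjusted p = 0.0283) were lower, beside 16.4% of all genes tested that were higher and 13.5% that were lower. In KI none of these 18 non-overlapping genes passed edgeR's test, none had an unadjusted p under 0.05, and DESeq2 called none, beside 15.4% of all genes lower and 16.1% higher by edgeR. Mynn, 2126 bases from Actrt3, had log2 fold changes of 0.24 in KO and 0.21 in KI, neither of which passed.

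The other 15 genes of the theca and of the acroplaxome, the plate of actin and keratin under the acrosome, form a list that was written with earlier results of these data known. Of these, 7 of 15 were lower by any amount in KO and 7 of 15 in KI, beside 13.5% and 15.4% of all genes tested, and 1, Gopc, was higher in each, beside 16.4% and 16.1%. With close pairs summed and KI 4 left out, 6 were lower in each genotype, without Fam209 in KO and Gsto2 in KI, and Gopc was no longer higher in KI (0.47, adjusted p = 0.136). The median log2 fold change was -0.23 in KO and -0.41 in KI. Actl11, another actin-like gene of spermatids, changed the most. It lay between 238 and 388 CPM in WT (median 296), between 25.2 and 146 CPM in KO (median 97.1) and between 55.8 and 94.4 CPM in KI (median 74.3), with no overlap between WT and either mutant genotype. Its log2 fold change was -1.77 in KO (SE 0.28, edgeR adjusted p = 7.79e-05) and -2.03 in KI (SE 0.29, adjusted p = 0.0384 against 1 log2 unit, edgeR), which made it the one gene of the list past 1 log2 unit. Without KI 4 the latter was -1.96 (adjusted p = 0.0991 against 1 log2 unit), and with close pairs summed and KI 4 left out it no longer passed that test (-1.90). In KO the same test gave an adjusted p of 0.249, and without KO 1 it gave 0.0627 (log2 fold change -1.97).

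Iqcn, whose calmodulin-binding product takes part in acrosome and head shaping, followed the cylicin pattern in KO 1, at 298 CPM against 34.5 to 137 CPM in the other KO libraries. Its log2 fold change was -1.43 in KO (adjusted p = 0.00321, edgeR) and -1.98 in KI (adjusted p = 0.000162, edgeR). Against 1 log2 unit the adjusted p of the KI change of Iqcn was 0.171, which was 0.0324 without KO 1, 0.0412 without KO 3, 0.356 without KI 4 and 1 with close pairs summed and KI 4 left out. Wbp2nl, the gene of a postacrosomal sheath protein, fell by 0.78 in KO and by 1.03 in KI on the log2 scale (edgeR adjusted p = 0.000827 and 3.58e-05). The testis profilin Pfn4 fell by 0.76 and 0.83 (edgeR adjusted p = 0.000491 and 0.000183). Fam209 and Gsto2 were also lower in both genotypes. Gopc, which acts in the transport of Golgi vesicles to the forming acrosome, had log2 fold changes of 0.47 in KO and 0.45 in KI (edgeR adjusted p = 0.00415 and 0.00468). Dpy19l2, an inner nuclear membrane protein that holds the acrosome, had -0.23 and -0.19, and neither it nor Agfg1, Pfn3, Pick1, Spaca1, Zpbp or Zpbp2 passed in either genotype.

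**Figure D5:**
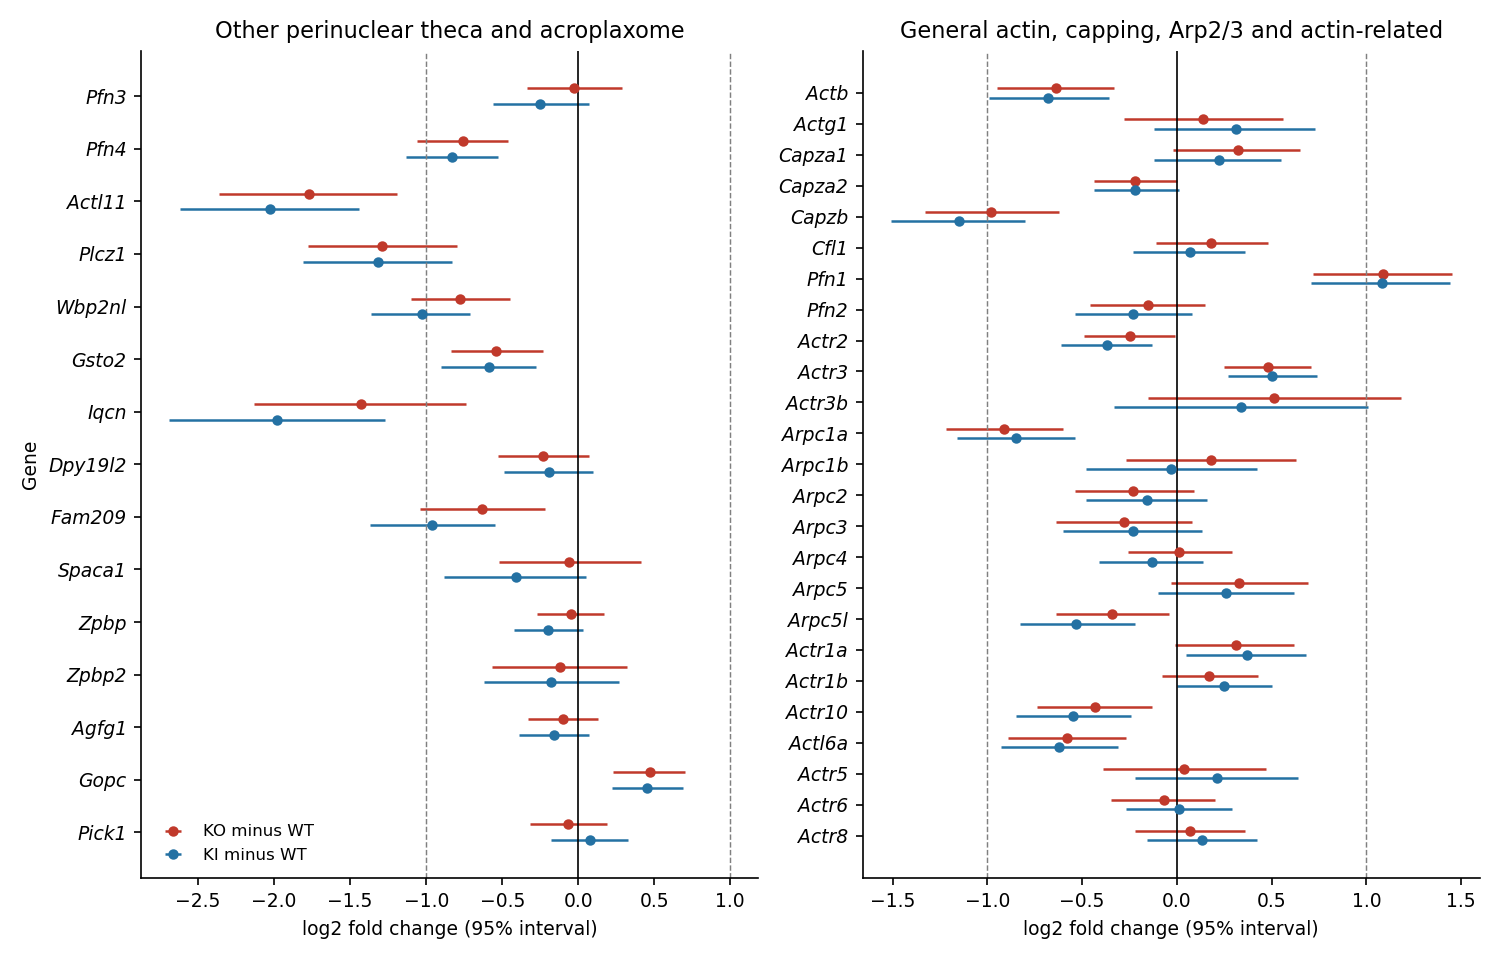
Log2 fold change against WT with 95% intervals (edgeR) in KO and KI for 15 other genes of the theca and acroplaxome (left) and 25 general genes of actin, capping, the Arp2/3 complex and actin-related proteins (right), with dashed lines at 1 log2 unit. Actl11 and Iqcn had the lowest values on the left, and Capzb and Pfn1 stood on opposite sides on the right.

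Among 8 general genes of actin and its capping and binding proteins, 2 were lower in both genotypes (Actb and Capzb, beside 13.5% of all genes tested in KO and 15.4% in KI) and 1 higher (Pfn1, beside 16.4% and 16.1%), with medians of -0.01 in KO and -0.07 in KI. Capzb, the beta subunit that partners Capza3, had log2 fold changes of -0.98 in KO and -1.15 in KI (SE 0.17 for each, adjusted p = 0.000209 and 2.95e-05, edgeR). Its CPM went from 178 ± 15.3 in WT to 90.3 ± 23.9 for KO and 80.0 ± 16.4 for KI (SD, n = 6 each), with no overlap. Of the alpha subunits of other cells, Capza1 had log2 fold changes of 0.32 and 0.22 and Capza2 of -0.22 and -0.22, none of which passed. Pfn1, the general profilin, had log2 fold changes of 1.09 and 1.08 (edgeR adjusted p = 9.18e-05 and 8.91e-05). Actb fell by 0.64 in KO and by 0.68 in KI on the log2 scale (edgeR adjusted p = 0.00336 and 0.00186), while Actg1 had 0.14 and 0.31 and did not pass.

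Of the 10 genes of the Arp2/3 complex, which starts branched actin filaments, 2 were lower in KO (Arpc1a and Arpc5l, beside 13.5% of all genes) and 3 in KI (the same genes and Actr2, beside 15.4%), and 1, Actr3, was higher in both, beside 16.4% and 16.1%. Arpc1a had log2 fold changes of -0.91 and -0.85 (edgeR adjusted p = 0.000123 and 0.00022), and Actr3 had 0.48 and 0.50 (edgeR adjusted p = 0.00307 and 0.00184). Of 7 general actin-related proteins, 2 were lower in both genotypes, beside the same shares of 13.5% and 15.4%, namely Actr10 of dynactin and Actl6a of chromatin remodelling complexes, and Actr1a was higher in KI (0.37, adjusted p = 0.0831, edgeR). Their median was 0.04 in KO and 0.13 in KI. With close pairs summed and KI 4 left out, Arpc5l and Actr10 passed in neither genotype and Actr2 and Actr1a no longer passed in KI, while the 8 general actin and capping genes kept their calls. Without KI 4 alone, Arpc5l no longer passed in KO (-0.34, adjusted p = 0.103) and Actr1b was higher in KI (0.31, adjusted p = 0.0748).

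The genes outside these lists whose pattern over the 18 libraries was most like the mean of the 10 standardized members were Fhl5 (Pearson r = 0.988), Tmem247 (0.987), Dnaja4 (0.981), Zfand6 (0.978) and Tmco2 (0.978). These correlations describe libraries that share genotypes and close pairs. Fhl5, a partner of CREM in spermatids, had 78.1 ± 11.4 CPM in WT, 56.5 ± 14.4 CPM in KO and 49.5 ± 6.99 CPM in KI (SD, n = 6 each).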

How the data were processed

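The authors used cutadapt 3.4 to trim the reads and STAR 2.7.8a to align them to GRCm38, and then counted fragments by strand with featureCounts (Subread 2.0.1) on GENCODE M18, with duplicates marked and not removed. They deposited the raw counts of 18 libraries in one table, and these counts were used without change. Symbols, exon numbers and gene types were taken from GENCODE M21, and promoter sequences from RefSeq.

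edgeR 4.0.16 in R 4.3.3 was used to keep 21058 genes by filterByExpr, to scale by TMM and to fit genotype over all libraries by quasi-likelihood. Changes of any amount were tested with glmQLFTest and changes past 1 log2 unit with glmTreat in its worst-case form, with Benjamini-Hochberg adjustment over all genes and a threshold of 0.1. On simulated counts of 20676 genes with 196 changed between WT and KO, the share that glmTreat recovered was 19.7% at 1.5 log2 units, 71.8% at 2 and 98.3% at 3, with 0 false calls. CPM are counts per 1000000 of the TMM-scaled library size, and levels between genes are compared per kilobase of exon. Differences within a library used a pseudocount of 1 CPM. A pair index is the median squared difference of gene counts between libraries over that of sampling noise, for genes with at least 20 counts in both together. The floor was set at 3 counts, or 0.112 to 0.16 CPM before normalization, and covers counting error only.

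Genes named in the text are Ddx25, the members, the genes of the lists, the nearest tested protein-coding gene on each side that does not overlap the member, genes that overlap a member, and the 5 genes outside the lists with the most like pattern. Genes chosen after their values were seen are said to be so. The members and lists were chosen with earlier results of these data known. Alternatives were DESeq2 1.42.0, RLE factors, total counts, no filter, a minimum of 10 counts in all libraries, a fit to only the 2 genotypes compared, a block of the replicate number, a threshold of 0.05, close pairs summed with KI 4 left out, and each library left out in turn. The interval form of glmTreat, leaving out KO 2 and KI 4 together, and the gene lists without KI 4 and with close pairs summed were added after the data were seen. Python 3.11.15, scipy 1.17.1 and matplotlib 3.10.9 were used for the other steps. Micro RNA data were not analysed here.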

Additional observations from a re-analysis of the deposited data

Results flagged for a closer look

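Each member was examined for a library far from the other 5 of its group, which flags 1 in 20 groups by chance, and 5 of 30 groups were flagged. Cylc1 in KO 1 had 87.0 CPM and Cylc2 in KO 1 had 171 CPM, each far above the other KO libraries. In the library labelled KI 4, Actrt3 had 71.1 CPM and Actrt2 had 249 CPM, each far above the other KI libraries. Actl7b in KO 3 had 470 CPM, far below the other KO libraries. KO 3 was also the lowest KO library for every other member except Actrt2 and Actrt3. Its sums were the lowest of KO for the 10 members (977 CPM), the late spermatid markers (1840 CPM) and the RS markers (985 CPM).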

How the results depend on the processing

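The numbers of members lower by any amount, 5 in KO and 7 in KI, stayed within 1.5 times under every alternative run, with 5 to 7 in KO and 7 to 8 in KI when single libraries were left out and 5 in KI with close pairs summed and KI 4 left out. In that setting the share of all genes that were lower went from 13.5% to 7.62% in KO and from 15.4% to 6.87% in KI. Without KI 4 the share of all genes that differed between KI and KO went from 0.0997% to 0.522%. The number of members lower past 1 log2 unit was 0 to 1 in KO, where Cylc1 passed without KO 1, and 0 to 1 in KI when single libraries were left out, where it passed without KO 1 and without KO 3. In KI it was 1, again Cylc1, with no filter on low counts, with only the 2 genotypes compared and with the interval form of glmTreat. No member differed between KI and KO under any alternative. Among the pairs, 5 of 10 comparisons passed, and 8 did with a pseudocount of 0.1 CPM, 5 to 7 without single libraries and 0 with close pairs averaged and KI 4 left out. Some same-numbered libraries deviated together and others apart (correlations between -0.441 and 0.481), and since each comparison of genotypes held correlations under 0.1, the numbers were not taken to pair the libraries. With the replicate block, 7 members were lower in KO, where Actl7a and Cylc2 were gained, and 7 in KI. In that setting 8 pair comparisons passed under sign flips within a number. Scaling by total counts moved the median of all genes to 0.15 in KO and 0.20 in KI and kept the calls of all members, while over all genes it turned 2836 lower and 3461 higher in KO into 2151 and 5214, and 3247 and 3397 in KI into 2485 and 5628. Single member calls changed in 12 of 360 values with a library left out and in 10 of 200 others, none of them in direction. At this depth and number of libraries, changes simulated between WT and KO were recovered past 1 log2 unit for 19.7% of genes at 1.5 log2 units and for 71.8% at 2. These were genes drawn at random in libraries without close pairs, and the members were not simulated as such.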
